A study of Populus ussuriensis with 12 samples.

Results

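The genes described here are Potri.001G393800.v3.1 and Potri.011G112400.v3.1, the 2 NCED3-type paralogs of *Populus* among 35907 gene identifiers measured in roots of the poplar *Populus ussuriensis*. They were chosen by identifier, and both were found in every library. The roots came from in vitro plants that overexpressed PuC3H35, a CCCH zinc finger protein gene, or from wild-type plants. Plants were 7 days old when moved to fresh medium and stayed there for 7 days. There were 4 groups of 3 libraries: the overexpressor on 6% PEG6000, the overexpressor on control medium, wild type on 6% PEG6000, and wild type on control medium. PEG6000, a polyethylene glycol, draws down the water potential around the roots and stands in for drought. The labels call the transgenic plants PuC3H35-OE and name neither the promoter nor the number of lines. They do not say whether libraries came from separate plants, so p-values speak only of variation from library to library, some of which may be technical.

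NCED enzymes, the 9-cis-epoxycarotenoid dioxygenases, cut 9-cis-violaxanthin or 9-cis-neoxanthin in plastids to give xanthoxin, the precursor of abscisic acid. This cleavage is the step generally held to limit the rate of abscisic acid synthesis, and abscisic acid is the hormone that closes stomata and shapes root growth when water is short. In *Arabidopsis*, NCED3 is the family member that rises most in drought-stressed vegetative tissue. The design asks whether the transcripts of these genes differed in roots after 7 days on PEG, whether they differed between the genotypes, and whether the PEG response depended on the genotype.

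Both genes were weakly expressed in these roots. Levels are FPKM (fragments over gene length and library total), which can be compared between genes because it is scaled to length. Group means of Potri.001G393800.v3.1 were above those of 35.6% to 47.5% of all 35907 genes, and those of Potri.011G112400.v3.1 above 24.7% to 39.2%. The values rest on few reads. Whole reads could be recovered from the deposited values, which imply library totals of 10568855 to 12055741 reads. The reads recovered over genes summed to nearly as much, 10566953 to 12053926, so these totals are of reads assigned to genes. Whether they are single reads or fragments is not known. The recovery gave 22 to 165 reads per library for Potri.001G393800.v3.1, over a length of 2656 bases, and 3 to 58 for Potri.011G112400.v3.1, over 2425 bases. How reads matching both paralogs were assigned is not given in the sources used here, so the split between the copies is uncertain to that extent. Mean correlations of a library with its group over all tested genes were 0.972 to 0.988. The lowest belonged to overexpressor library 4 on PEG (0.972) and overexpressor library 2 on control medium (0.975). No gene annotation was used here, so neither the root label nor the level of PuC3H35 was checked against named genes.

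Potri.001G393800.v3.1 had 1.84, 1.40 and 3.14 FPKM in libraries 1, 3 and 4 of the overexpressor on PEG. In the overexpressor on control medium it had 1.58, 5.17 and 2.42 FPKM in libraries 1, 2 and 5. In wild type on PEG it had 0.784, 1.46 and 0.867 FPKM in libraries 1, 2 and 3. In wild type on control medium the values were 1.24, 2.25 and 1.69 FPKM. Library 2 of the overexpressor on control medium stood well above the rest, with a 95% counting interval of 4.41 to 6.03 FPKM that overlapped that of no other library. Both wild-type groups stayed below 2.3 FPKM.

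Potri.011G112400.v3.1 was lower than its paralog in 11 of the 12 libraries. It had 2.06, 0.641 and 2.12 FPKM in libraries 1, 3 and 4 of the overexpressor on PEG, and 0.653, 1.27 and 0.565 FPKM in libraries 1, 2 and 5 of the overexpressor on control medium. In wild type on PEG it had 0.468, 1.11 and 0.457 FPKM. In wild type on control medium it was lowest, at 0.105, 0.551 and 0.239 FPKM, from 3, 15 and 7 reads. The exception to the order of the paralogs was library 1 of the overexpressor on PEG, where Potri.011G112400.v3.1 had 58 reads and Potri.001G393800.v3.1 had 57. Poisson intervals such as these cover counting error only.

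**Figure D1:**
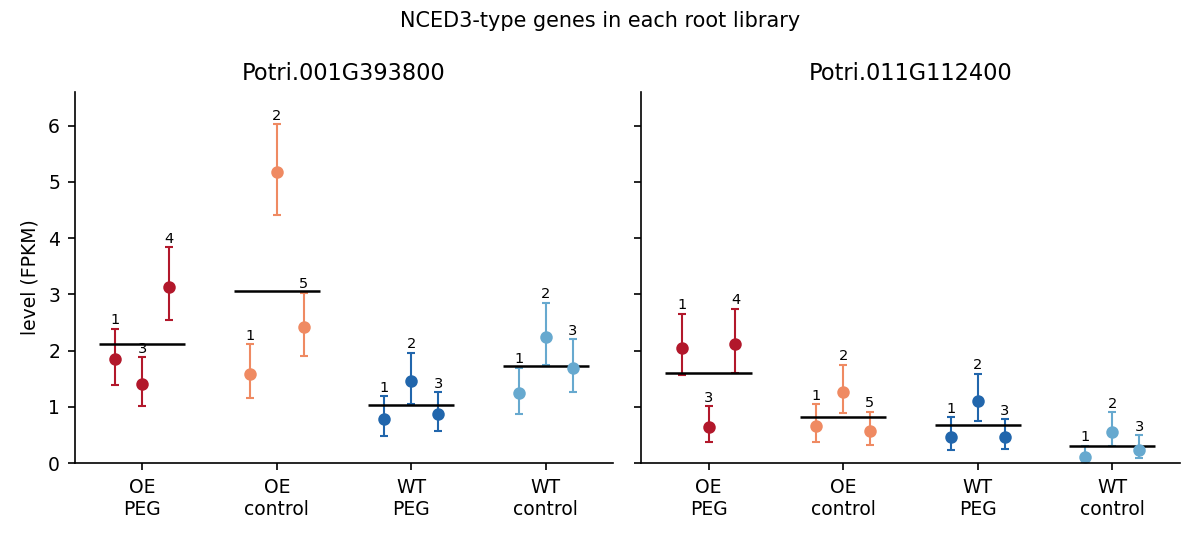
Level of each gene in FPKM (vertical axis) in each library of the 4 groups (horizontal axis; OE is the PuC3H35 overexpressor, WT wild type). Points are libraries with their number, bars are exact 95% Poisson counting intervals, and lines are group means. The overexpressor libraries reach higher than wild type for both genes, up to 5.17 and 2.12 FPKM, and library 2 of the overexpressor on control medium stands apart for Potri.001G393800.

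The groups ranked differently for the paralogs. Potri.001G393800.v3.1 averaged 2.13 ± 0.905 FPKM in the overexpressor on PEG, 3.06 ± 1.88 in the overexpressor on control medium, 1.04 ± 0.366 in wild type on PEG and 1.73 ± 0.504 in wild type on control medium (SD, n = 3 each). Its groups thus ran, from high to low, overexpressor on control medium, overexpressor on PEG, wild type on control medium, wild type on PEG. Potri.011G112400.v3.1 averaged 1.61 ± 0.836 FPKM in the overexpressor on PEG, 0.83 ± 0.384 in the overexpressor on control medium, 0.679 ± 0.375 in wild type on PEG and 0.298 ± 0.229 in wild type on control medium (SD, n = 3 each), which is also its order from high to low. For neither gene did neighbours in this order pass the limma test, with adjusted p of 0.335 to 0.758. Of these pairs, the overexpressor on PEG minus wild type on control medium gave 0.18 for Potri.001G393800.v3.1 on the log2(FPKM + 1) scale (SE 0.30), where 25.1% of all tested genes were called. The overexpressor on control medium minus wild type on PEG gave 0.13 for Potri.011G112400.v3.1 (SE 0.27), where 27.7% of genes were called. The highest and lowest groups of each order were picked from these same means, so the difference between them is left as a description.

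The comparisons of the design were tested with limma on log2(FPKM + 1) over the 24976 genes that reached 1 FPKM in 3 or more libraries. A gene is called when its Benjamini-Hochberg adjusted p over all these genes is under 0.05. Potri.001G393800.v3.1 passed the filter with 10 libraries and Potri.011G112400.v3.1 with 4, none of them from wild type on control medium. Fold changes on this scale understate the change of genes as low as these. In the 5 comparisons, limma called neither gene, with adjusted p of 0.161 to 0.924 over the 10 tests. At an unadjusted p under 0.05 there was 1 test, the genotype difference of Potri.011G112400.v3.1 on PEG, where 7216 of the 24976 genes reached that level. For the paralogs, limma-voom on the recovered reads gave 0 calls and 0 at that unadjusted level. Over all genes it called 491 (PEG in the overexpressor) to 6954 (PEG in wild type) in the 5 comparisons. At that unadjusted level it had 3090 to 9505 genes in the same comparisons.

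PEG left neither paralog with a called change in wild-type roots. Potri.001G393800.v3.1 had 1.04 FPKM on PEG and 1.73 on control medium, with library 2 on PEG above library 1 on control medium, so the groups overlapped. Its log2 change was -0.42 (SE 0.30, 95% interval -1.07 to 0.23, limma adjusted p 0.335). Potri.011G112400.v3.1 had the opposite sign. Its mean on PEG was 2.28 times that on control medium and its log2 change was 0.36 (SE 0.27, 95% interval -0.22 to 0.94, limma adjusted p 0.35), again with overlapping groups. For comparison, 28.6% of the 24976 tested genes were called in wild type on PEG, as were 24% of the 5232 genes with means of 0.5 to 2.5 FPKM, the range that holds both paralogs. The size for Potri.011G112400.v3.1 depends on the scale. It was 1.03 with a pseudocount of 0.1 (limma adjusted p 0.205) and 1.37 with limma-voom on recovered reads (adjusted p 0.227), and over all its alternatives the adjusted p ran from 0.205 to 0.694. Without library 2 of wild type on PEG the log2 change was 0.19.

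In the overexpressor too, neither paralog had a called change on PEG. Potri.001G393800.v3.1 had a log2 change of -0.32 (SE 0.30, 95% interval -0.97 to 0.33, limma adjusted p 0.74), and the value was 0.04 without library 2 and -0.59 without library 1 of the control-medium group, and -0.14 without library 3 and -0.54 without library 4 of the PEG group. Potri.011G112400.v3.1 had 0.47 (SE 0.27, 95% interval -0.11 to 1.05, limma adjusted p 0.503), its PEG libraries 1 and 4 lying above all 3 control-medium libraries and its PEG library 3 among them. Its value was 0.78 without that library 3 and 0.31 without PEG library 4. Of all tested genes, 2.08% were called in this comparison, and 1.15% of those with means of 0.5 to 2.5 FPKM. The interaction, which is the difference between the PEG responses of the genotypes, was 0.10 (SE 0.42, 95% interval -0.82 to 1.02, limma adjusted p 0.924) for Potri.001G393800.v3.1 and 0.11 (SE 0.38, 95% interval -0.71 to 0.93, limma adjusted p 0.91) for Potri.011G112400.v3.1, against 7.5% of all genes and 6.17% of genes in that FPKM range called. The intervals leave room for sizeable differences in either direction.

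Overexpression of PuC3H35 went with higher mean levels of both paralogs on both media, by differences that missed the threshold. On control medium the means were 3.06 FPKM in the overexpressor and 1.73 in wild type for Potri.001G393800.v3.1, a log2 difference of 0.49 (SE 0.30, 95% interval -0.16 to 1.14, limma adjusted p 0.263). That difference was 0.14 without library 2 of the overexpressor and 0.77 without its library 1. Potri.011G112400.v3.1 had means of 0.83 FPKM in the overexpressor and 0.298 in wild type, a log2 difference of 0.49 (SE 0.27, 95% interval -0.09 to 1.07, limma adjusted p 0.212). Here the groups did not overlap, the lowest overexpressor library (0.565 FPKM) standing just above the highest wild-type library (0.551 FPKM). No overlap between these groups was seen for 38% of the 24976 genes tested. Of these genes 20.3% were called, and 12.5% of those with means of 0.5 to 2.5 FPKM. With a pseudocount of 0.1 the log2 difference of Potri.011G112400.v3.1 was 1.31 (limma adjusted p 0.124, with 0.123 to 0.477 over the alternatives). Without library 2 of the overexpressor it was 0.32 on the log2(FPKM + 1) scale.

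On PEG the differences between genotypes were of similar size. Potri.001G393800.v3.1 averaged 2.13 FPKM in the overexpressor and 1.04 in wild type, a log2 difference of 0.60 (SE 0.30, 95% interval -0.05 to 1.25, limma adjusted p 0.212). Library 3 of the overexpressor lay below library 2 of wild type, and without overexpressor library 4 the difference was 0.37. Potri.011G112400.v3.1 averaged 1.61 FPKM in the overexpressor and 0.679 in wild type, a log2 difference of 0.60 (SE 0.27, 95% interval 0.02 to 1.18, unadjusted p 0.0445, limma adjusted p 0.161). Again overexpressor library 3 lay below library 2 of wild type. Without overexpressor library 3 this difference was 0.90 with a limma adjusted p of 0.0379, and adjusted p ran from there to 0.37 over the 20 alternatives. Without that library 2157 of the 24976 tested genes were called. In this comparison 14.5% of tested genes were called, and 9.06% of those in the FPKM range of the paralogs.

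**Figure D2:**
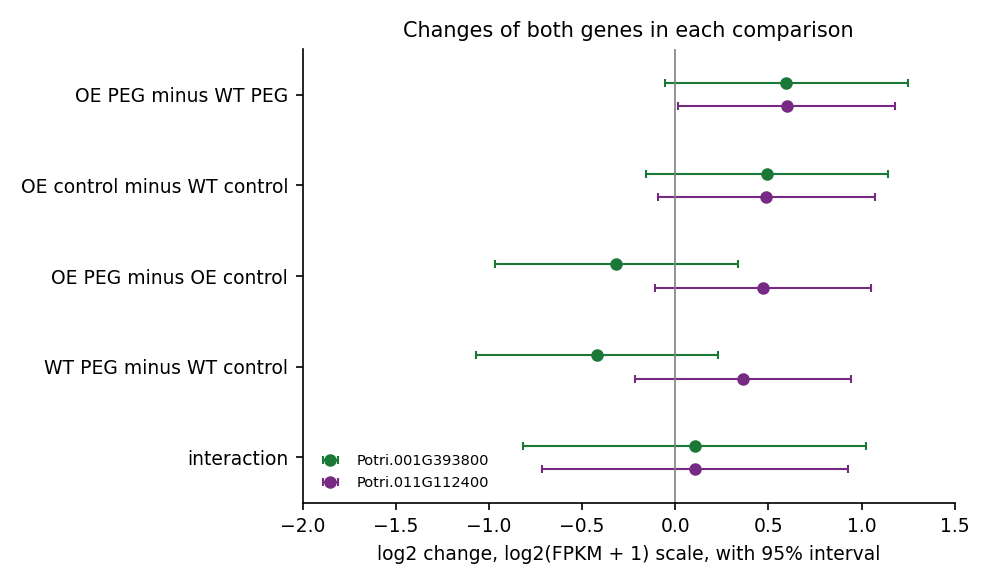
Log2 change of each gene (horizontal axis, log2(FPKM + 1) scale) in the 5 comparisons, each as the first group named minus the second; points are limma estimates and bars 95% intervals. The genotype differences lie between 0.49 and 0.60 for both genes, and the PEG differences have opposite signs for the 2 genes, from -0.42 to 0.47.

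Because the genotype differences were of similar size on both media, they were also averaged over media within the same fit, a contrast chosen after the separate values were seen. The averaged difference between overexpressor and wild type was 0.54 for Potri.001G393800.v3.1 (SE 0.21, 95% interval 0.08 to 1.00, limma adjusted p 0.0748) and 0.54 for Potri.011G112400.v3.1 (SE 0.19, 95% interval 0.13 to 0.95, limma adjusted p 0.0502). Neither was under 0.05, and 27.2% of tested genes were. Over 19 alternatives the adjusted p ran from 0.0299 to 0.145 for Potri.001G393800.v3.1 and from 0.0108 to 0.111 for Potri.011G112400.v3.1. The averaged PEG difference was -0.37 (SE 0.21, limma adjusted p 0.241) for Potri.001G393800.v3.1 and 0.42 (SE 0.19, limma adjusted p 0.134) for Potri.011G112400.v3.1, where 24.4% of genes were called. The value of Potri.001G393800.v3.1 was -0.19 when library 2 of the overexpressor on control medium was left out.

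The balance between the paralogs did differ between media. Potri.011G112400.v3.1 made up 52.7%, 31.4% and 40.3% of the summed FPKM of both genes in libraries 1, 3 and 4 of the overexpressor on PEG, against 29.3%, 19.7% and 18.9% in libraries 1, 2 and 5 of the overexpressor on control medium. In wild type its share was 37.4%, 43.3% and 34.5% in libraries 1, 2 and 3 on PEG, against 7.77%, 19.7% and 12.4% on control medium. In both genotypes every PEG library had a larger share than every control-medium library. Other gene pairs were not examined in this way, so how common such a separation is among them is not known. The mean share was 41.5% ± 10.7 on PEG and 22.6% ± 5.75 on control medium in the overexpressor, and 38.4% ± 4.48 on PEG and 13.3% ± 6.01 on control medium in wild type (SD, n = 3 each).

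This share is taken within a library, so no scaling between libraries enters it. It was tested as the log2 ratio of Potri.001G393800.v3.1 to Potri.011G112400.v3.1, with 1 FPKM added to each, a constant that leaves this ratio, unlike the share, with some dependence on scaling. The ratio averaged 0.28 ± 0.34 on PEG and 1.07 ± 0.40 on control medium in the overexpressor, and 0.29 ± 0.07 on PEG and 1.07 ± 0.05 on control medium in wild type (SD, n = 3 each). The added 1 FPKM narrows the spread at levels as low as those of wild type on control medium. There the ratio of FPKM without a constant ran from 4.08 to 11.9, and the log2 ratio with 0.1 FPKM added from 1.85 to 2.71. The PEG difference averaged over genotypes was -0.78, with an exact two-sided permutation p of 0.005 when media labels were permuted within each genotype. That is the smallest p its 400 permutations can give, and it was 0.03 after Benjamini-Hochberg adjustment over the 6 comparisons of the ratio. Without library 2 of the overexpressor on control medium, or library 1, 3 or 4 of the overexpressor on PEG, the difference lay between -0.69 and -0.85 with an exact permutation p of 0.01, which is 0.06 after that adjustment. Within a single genotype the difference was -0.79 in the overexpressor and -0.78 in wild type, each with an exact permutation p of 0.1, the smallest that 3 against 3 libraries allow. The closeness of these values depends on the added constant. With 0.1 FPKM added in place of 1 they were -1.20 in the overexpressor and -1.72 in wild type. By share the PEG difference was 18.8 percentage points in the overexpressor and 25.1 in wild type. The share of summed FPKM, which needs no added constant, was on average 22.0 percentage points larger on PEG (exact permutation p 0.005, or 0.03 after adjustment over 6 comparisons). In both genotypes every PEG library had the larger share, so this p is the smallest possible and adds nothing to that separation. Leaving out libraries was not tried for the share.

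**Figure D3:**
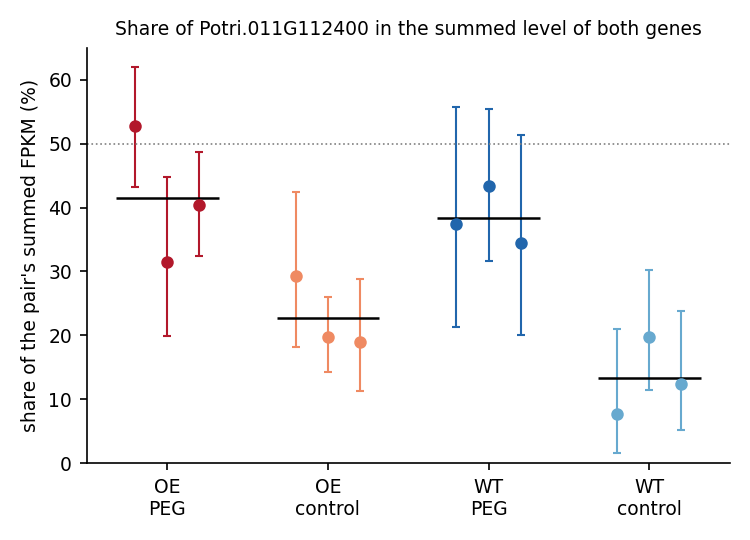
Share of Potri.011G112400 in the summed FPKM of both genes (vertical axis, %) in each library of the 4 groups (horizontal axis). Points are libraries, bars are 95% intervals from the exact binomial interval of the reads, lines are group means and the dotted line marks equal levels of the 2 genes; PEG libraries lie between 31.4% and 52.7% and control-medium libraries between 7.77% and 29.3%.

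No such difference in balance was seen between genotypes by the log2 ratio. It was 1.07 in both genotypes on control medium and 0.28 in the overexpressor against 0.29 in wild type on PEG. The genotype difference averaged over media was 0.0007 with an exact permutation p of 0.995. The added constant matters for this comparison. With 0.1 FPKM added in place of 1, the averaged genotype difference was -0.39 (exact permutation p 0.16), and by share Potri.011G112400.v3.1 stood 9.34 percentage points higher in the overexpressor than in wild type on control medium (exact permutation p 0.2). Whether PEG shifted the balance by different amounts in the 2 genotypes was not tested.

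The summed level of both genes averaged 3.73 ± 1.62 FPKM in the overexpressor and 1.71 ± 0.74 in wild type on PEG, and 3.89 ± 2.25 FPKM in the overexpressor and 2.02 ± 0.731 in wild type on control medium (SD, n = 3 each). The overexpressor mean on control medium rests on library 2, at 6.44 FPKM, and was 2.61 FPKM without it. The sum is given as a description, without a test.

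Within groups the paralogs varied together. In all 4 groups the library with the highest Potri.001G393800.v3.1 was also the one with the highest Potri.011G112400.v3.1: overexpressor library 4 on PEG, and library 2 of the overexpressor on control medium, of wild type on PEG and of wild type on control medium. Of all tested genes, 1.48% had their highest values in these same 4 libraries. Deviations of log2(FPKM + 1) from the group means had a Pearson correlation of 0.78 between the paralogs over 12 libraries. Only 0.941% of tested genes followed Potri.001G393800.v3.1 more closely in this way, and 0.456% followed Potri.011G112400.v3.1 more closely. Over all 12 libraries, group differences included, the correlation was 0.53. It is a description over libraries that share their groups, and 12.2% and 7.99% of genes were more like the first and the second paralog. The 4 libraries that were highest for both paralogs were also each the least correlated with their own group (0.972, 0.975, 0.986 and 0.978, in the order above). The part of library quality in the shared variation of the paralogs was not tested.

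**Figure D4:**
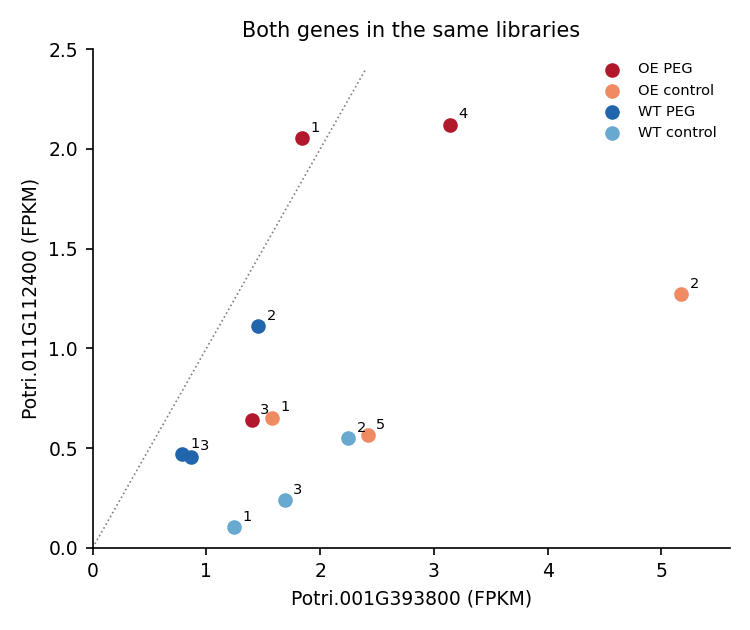
Level of Potri.011G112400 (vertical axis, FPKM) against Potri.001G393800 (horizontal axis, FPKM) in the 12 libraries, numbered as in the labels and coloured by group; the dotted line marks equal levels. Seen from the origin, PEG libraries lie at a steeper slope than control-medium libraries of the same genotype, and the highest library of each group is highest for both genes.

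The genes whose pattern over the 12 libraries was most like each paralog were sought among 17044 tested genes whose highest group mean was 5 FPKM or more. For Potri.001G393800.v3.1 the closest 5 had Pearson correlations of 0.865 to 0.945, led by Potri.007G139900.v3.1 (0.945) and Potri.010G105600.v3.1 (0.881). The leader hardly varied between groups, at 6.94 FPKM (PEG) and 7.69 FPKM (control medium) in the overexpressor against 6.25 FPKM (PEG) and 6.43 FPKM (control medium) in wild type. Within the groups its correlation was 0.949. All of the closest 5 shared the group order of Potri.001G393800.v3.1. Among them Potri.011G139801.v3.1 (0.877) had the widest spread between groups as a ratio, at a higher level than the paralog. It averaged 27.1 FPKM (PEG) and 37.3 FPKM (control medium) in the overexpressor, against 12.5 FPKM (PEG) and 21.3 FPKM (control medium) in wild type. These genes were picked for likeness over the same 12 libraries, so their group differences are given as levels, without a test.

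For Potri.011G112400.v3.1 the closest 5 had correlations of 0.862 to 0.887, led by Potri.008G059200.v3.1 (0.887), at 22.3 FPKM in the overexpressor on PEG and 15.3 in wild type on control medium. The fifth, Potri.002G083800.v3.1 (0.862), had the widest spread between groups as a ratio, with 5.45 FPKM (PEG) and 2.96 FPKM (control medium) in the overexpressor against 0.759 FPKM (PEG) and 0.0426 FPKM (control medium) in wild type. It entered the candidates through the overexpressor on PEG alone, where its mean passed the 5 FPKM limit. The files pair none of these identifiers with a gene name.

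The genes next to each paralog by identifier number were taken as the 10 identifiers on each side. Beside Potri.001G393800.v3.1, 13 of 20 were tested. In wild type on PEG limma called 1 of them higher and 1 lower, against 28.6% called over all genes, with a median log2 change of 0.030 beside -0.043 over all genes. For the overexpressor against wild type, 1 was higher and 1 lower on control medium, where 20.3% of all genes were called, and 0 were higher and 1 lower on PEG, where 14.5% were. Their median log2 differences were -0.034 on control medium and 0.010 on PEG, beside 0.080 and 0.076 over all genes. The 1 called higher in wild type on PEG and the 1 called lower between genotypes on PEG are the same gene, Potri.001G394800.v3.1. It passed the filter only through wild type on PEG, where it is high, so these calls carry no weight as tests.

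Beside Potri.011G112400.v3.1, 15 of 20 identifiers were tested. In wild type on PEG 0 were called higher and 4 lower by limma, against 28.6% called over all genes. Their median log2 change was -0.097, beside -0.043 over all genes. For the overexpressor against wild type, 1 was higher and 0 lower on control medium, where 20.3% of all genes were called. On PEG 2 were higher and 0 lower, where 14.5% of all genes were called. The median log2 differences were 0.064 on both media, beside 0.080 on control medium and 0.076 on PEG over all genes. In the overexpressor on PEG against control medium, limma called 0 of the 28 tested neighbours of both genes, and 2.08% of all tested genes. Past a log2 change of 1 in wild type on PEG was Potri.011G113100.v3.1 (-1.34, SE 0.18, limma adjusted p 1.41e-04), at 1.82 FPKM on PEG and 6.09 on control medium. Potri.001G394800.v3.1, beside the other paralog, also lay past that limit, at 1.68 FPKM on PEG and 0.213 on control medium in wild type. It reached 1 FPKM in wild type on PEG alone and so passed the filter only through the group where it is high, and its change is left as a description.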

How the data were processed

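Root RNA of 12 libraries was sequenced from Illumina TruSeq libraries after CTAB extraction, per the labels' protocols. The authors deposited 1 FPKM value per gene and library. The unit is not named in the files and was judged from the values. Per the submitters' processing notes, Bowtie2 2.2.3 and HISAT2 2.1.0 were used, in roles the notes leave unsaid. The counter, annotation and build used are not given in the sources at hand. Groups come from the tissue labels and replicate numbers from the titles.

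Each library was scaled by 1 depth factor, and each gene's values were then whole multiples of 1 step. This gave whole reads for 100.0% of 370737 values above 0 (within 0.01 read) and whole lengths for 21032 well-counted genes (within 0.01 bases). The recovery and the test were also run on data simulated from the recovered reads, with an outcome that is not given here.

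The test was limma 3.58.1 (intensity trend, R 4.3.3) on log2(FPKM + 1), with 4 group means, 12 libraries and 8 residual degrees of freedom, two-sided. Intervals are 95% and SE are limma's moderated ones. Paralog ratios were tested by exact permutation in Python 3.11.15. Alternatives were a pseudocount of 0.1, no filter, median-ratio and upper-quartile scaling, only the groups compared, no trend, limma-voom with weighted trimmed-mean scaling on recovered reads, a replicate block, and each library left out.

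Both genes and all lists were chosen with earlier results of these data known. Named genes are the paralogs, the most correlated genes and called identifier neighbours past a log2 change of 1. Planned lists of abscisic acid pathway and tissue marker genes needed an annotation and were not used here, and no sequence is shown.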

Additional observations from a re-analysis of the deposited data

How the results depend on the processing

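Over 10 tests of a paralog and 198 alternatives, 1 passed an adjusted p of 0.05. It was Potri.011G112400.v3.1 in the overexpressor against wild type on PEG, without library 3 of the overexpressor on PEG (0.90, limma adjusted p 0.0379). In that fit 2157 of the 24976 tested genes were called. Leaving out libraries gave this difference values of 0.44 to 0.90. Outside the interaction 1 value changed sign: the PEG effect of Potri.001G393800.v3.1 in the overexpressor ran from -0.59 to 0.037 with libraries left out. The interaction changed sign 8 times. It ran from -0.17 to 0.46 for Potri.001G393800.v3.1 and from -0.052 to 0.41 for Potri.011G112400.v3.1 with libraries left out, and for the second gene was -0.24 with a pseudocount of 0.1 and -0.50 with limma-voom. The causes were not tested.

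The averaged genotype effect of Potri.011G112400.v3.1 passed with a pseudocount of 0.1 (1.19, adjusted p 0.0464) and with no intensity trend (0.54, adjusted p 0.0459), and ran from 0.46 to 0.70 with libraries left out, passing without library 2 of wild type on either medium or library 3 of the overexpressor on PEG. That of Potri.001G393800.v3.1 passed with the replicate block (0.54, adjusted p 0.0466) and ran from 0.37 to 0.68 with libraries left out, passing without library 1 of the overexpressor on control medium. It was lowest without library 2 of the overexpressor on control medium. Of the 24976 tested genes, 5405 (replicate block) to 6632 (pseudocount of 0.1) were called in the fits where an averaged genotype effect passed. The averaged PEG effect of Potri.011G112400.v3.1 ran from 0.33 to 0.57 and passed without library 3 of the overexpressor on PEG (limma adjusted p 0.0236). In that fit 5474 of the 24976 tested genes were called.

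With libraries left out, the overexpressor on PEG minus wild type on control medium ran from -0.045 to 0.349 for Potri.001G393800.v3.1, and the overexpressor on control medium minus wild type on PEG from -0.040 to 0.303 for Potri.011G112400.v3.1. The PEG effect on the log2 ratio kept its sign in all 13 alternatives, from -0.69 to -0.89 with libraries left out and -1.46 with a pseudocount of 0.1. Its exact permutation p adjusted over the 6 comparisons was 0.03 in 9 of them and 0.06 in 4, without library 2 of the overexpressor on control medium or library 1, 3 or 4 of the overexpressor on PEG. The genotype effect on the ratio was -0.39 with that pseudocount and ran from -0.092 to 0.11 with libraries left out.

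Counts over all genes moved by over 1.5 times as follows. With the replicate block there were 149 calls in place of 519 for PEG in the overexpressor, 3138 in place of 5080 for genotype on control medium, 2174 in place of 3620 for genotype on PEG and 848 in place of 1873 for the interaction. The number from the titles is shared by too few libraries of the overexpressor to pair them (libraries 4 and 5 drop out of the contrasts), and same-numbered libraries had correlated deviations of -0.233 to 0.263, so they were not treated as pairs. The block changed no other call of a paralog. With only the groups compared there were 265 and 3325 calls for the first 2. Leaving out libraries gave 238 to 584, 3147 to 5719, 1746 to 3771 and 967 to 2076. Comparisons of Potri.011G112400.v3.1 with wild type on control medium rest on 3 to 15 reads per library there.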
